A study of Mus musculus with 50 samples.

Results

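The 12 mouse mammary gland tumors with the highest and the 12 with the lowest level of Isg15, an interferon-induced gene, were compared. The tumors were chosen by their Isg15 level alone, irrespective of treatment, in a ranking of 49 of the 50 tumors of the series. The tumor insulin_13 had been set aside before ranking, and 25 tumors lay between both groups. Since Isg15 chose the groups, its own values are a description, and a test of another gene asks whether that gene went with Isg15 at both ends of the ranking.

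The tumors came from female p53R270H/+WAPCre mice, in which Cre under the control of the mammary WAP promoter switches on a mutant p53 allele. From an age of 8 weeks the mice received vehicle, insulin, glargine, X10 or IGF1 by subcutaneous injection, with 10 tumors per treatment; glargine and X10 are insulin analogues, and IGF1 is insulin-like growth factor 1. Collection was at a size of 1 cm3, and dosing had ended 24 h earlier. The authors had chosen EMT-like tumors (tumors with a mesenchymal appearance) with a latency close to the median of their treatment. All tumors of both groups therefore share the mutant p53 allele and the Cre, and no group lacked injections. The tumors whose titles read Untreated were counted as the vehicle group, and single tumors are called by their titles.

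Interferons are secreted proteins that cells release after sensing foreign or misplaced nucleic acid. They bind receptors that signal through the kinases Jak1 and Tyk2 to transcription factors of the STAT and IRF families, and these factors switch on a large set of interferon-stimulated genes with antiviral, antigen-presenting and feedback functions. Isg15 is one of these genes and encodes a small ubiquitin-like protein that is attached to other proteins. In bulk tumor RNA, fewer cells of a type and less RNA per cell cannot be told apart, so a level can come from tumor cells or from the leukocytes among them.

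Expression was measured by RNA sequencing and is given as RPKM (reads per kilobase of gene length, scaled to the size of the library). Library sizes recovered from the values ran from 26.6 to 51.9 M reads. They averaged 41.7 ± 6.54 M reads (SD, n = 12) in the Isg15-high and 39.2 ± 3.67 M reads (SD, n = 12) in the Isg15-low tumors. The difference of 2.52 M reads did not pass a two-sided permutation test (p = 0.260). Isg15 itself rested on 256 to 377 reads in the Isg15-low and on 1868 to 8025 reads in the Isg15-high tumors. Mitochondrial genes took 1.92% to 4.72% of the summed RPKM in the Isg15-high and 2.57% to 4.27% in the Isg15-low tumors.

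Isg15 (chromosome 4, 156199424 to 156200818, minus strand, GRCm38) reached 55.2 RPKM in the lowest, 92.9 RPKM in the median and 251.8 RPKM in the highest of the Isg15-high tumors. In the Isg15-low tumors it was at 8.74, 10.2 and 12.3 RPKM, and in the 25 tumors between them at 13.2, 20.9 and 53.4 RPKM. The ranking ran without a gap at either border. Untreated_174 at 55.2 RPKM was the last tumor inside the Isg15-high group and insulin_15 at 53.4 RPKM the first outside it; X10_100 at 12.3 RPKM and IFG1_132 (an IGF1 tumor) at 13.2 RPKM stood on either side of the other border.

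**Figure D1:**
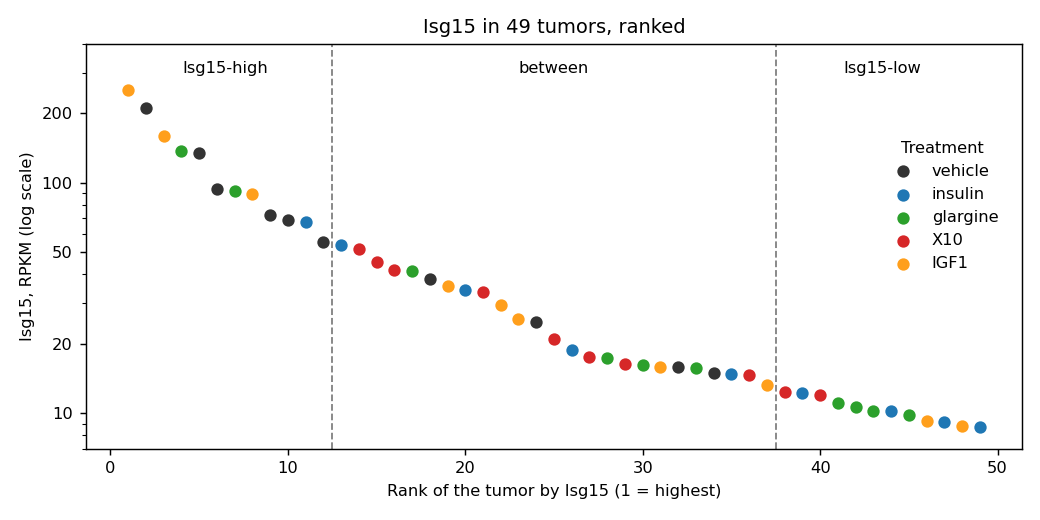
Isg15 level (RPKM, log scale) of 49 tumors against their rank, colored by treatment, with dashed lines at the borders of the 12 Isg15-high and 12 Isg15-low tumors. The values fall without a step from 251.8 to 8.74 RPKM; no X10 tumor lies in the Isg15-high and no vehicle tumor in the Isg15-low group.

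The groups were not balanced for treatment. Of the Isg15-high tumors, 6 had received vehicle, 3 IGF1, 2 glargine, 1 insulin and 0 X10. Of the Isg15-low tumors, 4 had received insulin, 4 glargine, 2 X10, 2 IGF1 and 0 vehicle. This distribution differed between the groups by a two-sided Fisher-Freeman-Halton exact test (p = 0.0206), but not with 8 tumors per group (exact p = 0.0909), 16 per group (exact p = 0.256) or a ranking by Ifit3 (exact p = 0.189). Across all 49 tumors, Isg15 was at 14.9 to 210.7 RPKM (median 61.9) with vehicle, 8.74 to 67.4 (median 14.8) with insulin, 9.78 to 136.6 (median 15.9) with glargine, 12.0 to 51.4 (median 19.2) with X10 and 8.78 to 251.8 (median 27.5) with IGF1. Treatment accounted for 15.6% of the variance of log2(Isg15 RPKM + 0.5), which did not pass a permutation test over the 5 treatments (p = 0.105). The ranges of the treatments overlapped.

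Over the 16732 genes whose mean reached 0.5 RPKM, Isg15 left out, 254 genes (1.52%) differed between the groups at an adjusted p under 0.05 (limma, on the log2(RPKM + 0.5) scale, on which all differences below are given and which understates the change of low genes). Of these, 191 (1.14%) were higher and 63 (0.377%) lower in the Isg15-high tumors, and 3169 had an unadjusted p under 0.05. In 21 genes (0.126%) every Isg15-high tumor lay above every Isg15-low tumor, and in 0 genes below. Of 163 tested genes on 14 interferon lists, 84 were higher and 0 lower in the Isg15-high tumors, 151 had a positive difference, and 19 had groups without overlap. Their median difference was 0.83 on the log2 scale, against 0.03 over all tested genes. With treatment as a term in the fit, which rests on the insulin, glargine and IGF1 tumors because vehicle and X10 occur at one end each, 32 genes (0.191%) were higher and 0 lower; 27 of the 84 interferon list genes passed. Without the vehicle tumors 117 genes (0.699%) were higher and 1 was lower, and 67 of the 84 passed.

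**Figure D2:**
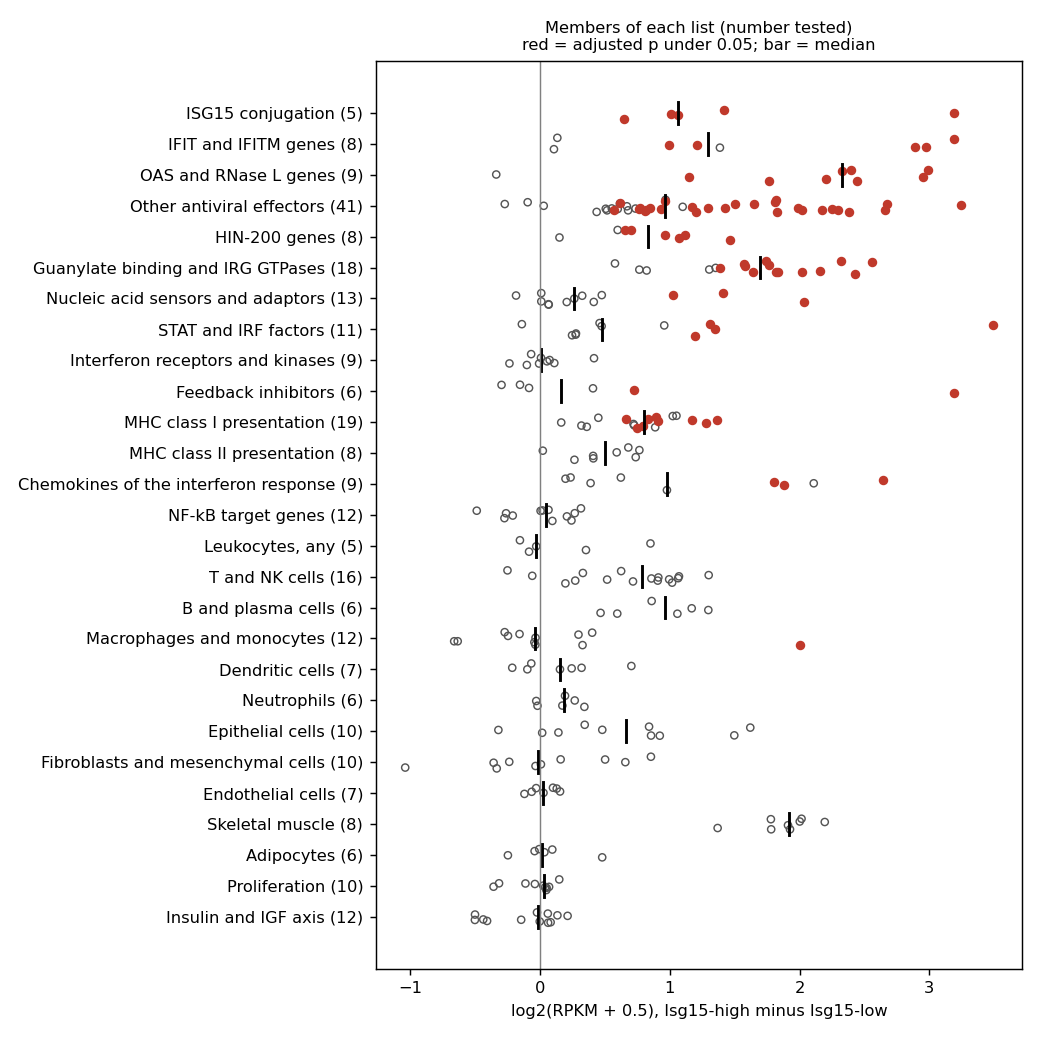
Difference in log2(RPKM + 0.5), 12 Isg15-high minus 12 Isg15-low tumors, for each tested member (point) of the interferon, signalling and cell type lists; red points passed an adjusted p under 0.05 and bars are list medians. Antiviral, GTPase and MHC class I members lie to the right of 0, with OAS and RNase L genes at a median of 2.33, while receptors and kinases lie around 0 and, of the signalling and cell type lists, 1 member (Ly6c2) passed.

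The interferon genes themselves were barely detected. None of the 21 ligand genes reached the mean of 0.5 RPKM, so none was tested, and the summed level of all 21 was 0.31 to 1.69 RPKM in the Isg15-high and 0.226 to 0.699 RPKM in the Isg15-low tumors. Ifnb1 (interferon beta) was at 0 to 0.338 RPKM (median 0.117) in the Isg15-high and at 0 to 0.078 RPKM (median 0.039) in the Isg15-low tumors, and 7 of the 12 Isg15-high tumors lay above every Isg15-low tumor. In the tumors between the groups, Ifnb1 ran from 0 (for example insulin_9) to 0.299 RPKM (Untreated_161). Ifng (interferon gamma) was at 0 to 0.572 RPKM (median 0.079) against 0 to 0.157 RPKM (median 0.0535), with 4 of 12 above every Isg15-low tumor. The groups overlapped for both genes, and both were listed at 0 in at least 1 tumor of each group.

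None of the 9 receptor and kinase genes passed, and their median difference was 0.01. Since 1.52% of all tested genes were called, 0 of 9 is near the background. Ifnar1, a chain of the type I interferon receptor, was at 29.4, 35.6 and 46.4 RPKM (lowest, median, highest) in the Isg15-high and at 33.3, 42.6 and 54.7 RPKM in the Isg15-low tumors, a difference of -0.23 ± 0.10 (SE, adjusted p = 0.191). Ifnar2, the other chain, was at a median of 41.6 against 40.5 RPKM (-0.01 ± 0.11, adjusted p = 0.986). Both groups covered nearly the same range for this gene. The interferon gamma receptor chains Ifngr1 and Ifngr2 differed by 0.06 ± 0.18 (adjusted p = 0.891) and 0.11 ± 0.17 (adjusted p = 0.745), and Jak1, Jak2 and Tyk2 by -0.10 ± 0.15, 0.08 ± 0.15 and 0.01 ± 0.15 (adjusted p = 0.762, 0.811 and 0.980). Il10rb, a chain shared with the interferon lambda receptor, differed by -0.07 ± 0.13 (adjusted p = 0.811). The lambda receptor Ifnlr1 was low, at a median of 0.559 against 0.296 RPKM (0.42 ± 0.30, adjusted p = 0.454).

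Downstream of the receptors, 4 of 11 STAT and IRF genes were higher and 0 lower, with a list median of 0.48. Irf7, the factor that amplifies interferon production, showed the largest difference of all genes on the interferon lists. It was at 59.5, 162.3 and 550.9 RPKM (lowest, median, highest) in the Isg15-high and at 11.7, 13.8 and 30.8 RPKM in the Isg15-low tumors. Every Isg15-high tumor lay above every Isg15-low tumor, and the difference was 3.49 ± 0.27 (11.2-fold, adjusted p = 1.18e-08). Irf9, a DNA-binding partner of Stat2, was at 15.8, 24.7 and 38.7 RPKM against 7.22, 10.3 and 13.0 RPKM, again without overlap (1.20 ± 0.14, adjusted p = 8.13e-06). Stat2 was at 6.98, 14.5 and 28.2 RPKM against 3.75, 5.51 and 7.63 RPKM (1.31 ± 0.20, adjusted p = 0.000281). The groups overlapped, with 10 of 12 Isg15-high tumors above every Isg15-low tumor.

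**Figure D3:**
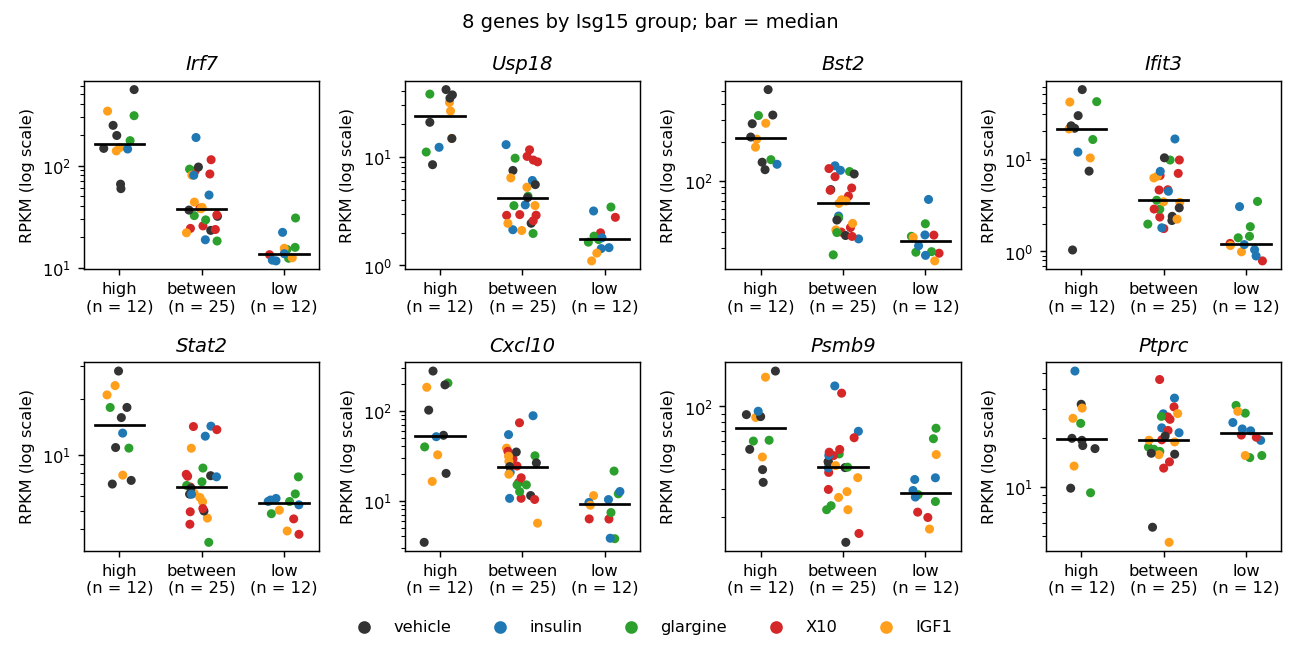
RPKM (log scale) of Irf7, Usp18, Bst2, Ifit3, Stat2, Cxcl10, Psmb9 and Ptprc in each tumor of the Isg15-high group (n = 12), the tumors between (n = 25) and the Isg15-low group (n = 12), colored by treatment, with bars at the medians. Irf7, Usp18 and Bst2 do not overlap between the outer groups, Ifit3 has 1 Isg15-high tumor at 1.04 RPKM among the Isg15-low values, and Ptprc has medians of 19.6 and 21.5 RPKM.

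All 5 tested partners of Isg15 in protein conjugation were higher, with a median of 1.06. Usp18, which removes ISG15 from proteins and also dampens receptor signalling, was at 8.42, 23.4 and 41.2 RPKM against 1.10, 1.76 and 3.44 RPKM, without overlap (3.19 ± 0.24, 9.12-fold, adjusted p = 1.18e-08). Ube2l6, the enzyme that carries activated ISG15, was at 29.8, 49.9 and 87.7 RPKM against 15.6, 18.4 and 21.2 RPKM, also without overlap (1.42 ± 0.15, adjusted p = 1.40e-06). The activating enzyme Uba7 and the ligase Herc6 were higher with overlapping groups, by 1.01 ± 0.18 (adjusted p = 0.00251) and 1.06 ± 0.21 (adjusted p = 0.00586). With treatment in the fit 2 of the 5 passed, and without vehicle tumors 4 did.

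The OAS genes make an RNA-like messenger that activates the nuclease RNase L, and 8 of 9 genes of this list were higher, with a median of 2.33; in 7 of them the groups did not overlap. Oasl1 was at 17.6, 46.9 and 109.6 RPKM in the Isg15-high and at 3.86, 5.56 and 11.0 RPKM in the Isg15-low tumors (2.99 ± 0.24, 7.94-fold, adjusted p = 1.19e-08). Oas3 was at 4.07, 12.3 and 25.0 RPKM against 0.593, 1.14 and 2.15 RPKM (2.95 ± 0.26, adjusted p = 3.86e-08). Both lay above every Isg15-low tumor in all 12 Isg15-high tumors, as did Oasl2 (2.44 ± 0.21) and Oas2 (2.40 ± 0.24). Oas1a and Oas1g are close copies, so the split of reads between them is uncertain.

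Of the IFIT and IFITM genes, which bind foreign RNA or hinder virus entry, 5 of 8 were higher, with a median of 1.30. Ifit1bl1 is in this count (adjusted p = 0.0461), with a mean of 1.23 RPKM in the Isg15-high tumors. Its means of 0.479 RPKM between the groups and 0.236 RPKM in the Isg15-low tumors lay below the filter of 0.5 RPKM. Ifit3 was at 1.04, 21.1 and 55.6 RPKM against 0.791, 1.20 and 3.46 RPKM (3.19 ± 0.40, 9.12-fold, adjusted p = 1.85e-05), and Ifit1 at 2.16, 23.1 and 50.7 RPKM against 1.19, 1.8 and 3.37 RPKM (2.97 ± 0.35, adjusted p = 6.63e-06). In both genes 11 of 12 Isg15-high tumors lay above every Isg15-low tumor, and the exception was Untreated_174. Ifit3b, a close copy of Ifit3 with which it can share reads, differed by 2.89 ± 0.39 (adjusted p = 5.47e-05). Ifit2 was at 0.575, 20.1 and 45.5 RPKM against 2.71, 5.4 and 13.2 RPKM and did not pass (1.39 ± 0.46, adjusted p = 0.107); the lowest value of both groups was in an Isg15-high tumor.

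Among the other antiviral effectors, 27 of 41 were higher and 0 lower, with a median of 0.96. Ifi44 differed most (1.78, 21.1 and 64.2 RPKM against 1.11, 1.6 and 3.14 RPKM; 3.24 ± 0.38, adjusted p = 6.63e-06), with 1 Isg15-high tumor inside the Isg15-low range. Bst2, which tethers virus particles to the cell, was at 121.9, 215 and 513.6 RPKM against 23.7, 33.6 and 71.5 RPKM (2.66 ± 0.21, 6.31-fold, adjusted p = 1.19e-08). Rtp4 (2.67 ± 0.22, adjusted p = 1.43e-08) and Mx2 (2.38 ± 0.22, adjusted p = 8.07e-08; annotated as a polymorphic pseudogene) also separated the groups completely. Of the HIN-200 genes, a DNA-binding family, 6 of 8 were higher with a median of 0.83, led by Ifi209 (1.46 ± 0.24, adjusted p = 0.000805), and in none were the groups separate. With treatment in the fit 9 of the 41 other effectors and 0 of the 8 HIN-200 genes passed (Ifi209 adjusted p = 0.0636), and without vehicle tumors 21 and 2 did.

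Of the nucleic acid sensors and adaptors, 3 of 13 were higher, with a median of 0.27. These were the RNA helicases: Dhx58 at 21.3, 41.1 and 78.6 RPKM against 6.44, 10.1 and 16.9 RPKM (2.03 ± 0.17, adjusted p = 2.87e-08, no overlap), Ifih1 (1.41 ± 0.25, adjusted p = 0.00235) and Ddx58 (1.03 ± 0.19, adjusted p = 0.00347). Tlr3, the endosomal sensor of double-stranded RNA, differed by 0.48 ± 0.22 and did not pass (adjusted p = 0.240). With treatment in the fit 1 of the 13 passed, and without vehicle tumors 3 did.

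The promoters of 4 genes of these groups are shown because they hold GAAA, any 2 bases and GAAA, a simple form of the element that Stat2 and Irf9 bind, on either strand. Each is the RefSeq window of GRCm38.p6 from 250 bases before to 50 bases after the start of the gene, read on the strand of the gene, with every matching stretch in capitals (TTTC, any 2 bases and TTTC is the same motif on the opposite strand). Isg15 lies at chr4:156200769-156201068 (minus strand), Ifit3 at chr19:34583279-34583578 (plus), Bst2 at chr8:71537423-71537722 (minus) and Oas1a at chr5:120907476-120907775 (minus).
Isg15: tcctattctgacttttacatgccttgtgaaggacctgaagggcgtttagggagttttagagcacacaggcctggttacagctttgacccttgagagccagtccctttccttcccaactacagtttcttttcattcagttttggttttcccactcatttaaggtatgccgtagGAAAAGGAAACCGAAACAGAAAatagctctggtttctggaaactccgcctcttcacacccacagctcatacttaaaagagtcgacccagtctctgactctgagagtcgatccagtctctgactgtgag
Ifit3: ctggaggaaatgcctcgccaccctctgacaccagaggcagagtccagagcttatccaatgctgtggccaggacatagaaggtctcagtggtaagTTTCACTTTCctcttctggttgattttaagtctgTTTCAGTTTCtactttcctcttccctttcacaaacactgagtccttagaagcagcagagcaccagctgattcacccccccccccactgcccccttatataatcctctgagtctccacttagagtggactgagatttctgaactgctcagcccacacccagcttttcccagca
Bst2: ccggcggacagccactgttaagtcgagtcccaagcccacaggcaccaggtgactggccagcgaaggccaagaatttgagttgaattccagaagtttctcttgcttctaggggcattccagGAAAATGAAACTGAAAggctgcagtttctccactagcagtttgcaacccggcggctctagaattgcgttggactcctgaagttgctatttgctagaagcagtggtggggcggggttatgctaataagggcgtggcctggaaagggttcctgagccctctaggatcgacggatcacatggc
Oas1a: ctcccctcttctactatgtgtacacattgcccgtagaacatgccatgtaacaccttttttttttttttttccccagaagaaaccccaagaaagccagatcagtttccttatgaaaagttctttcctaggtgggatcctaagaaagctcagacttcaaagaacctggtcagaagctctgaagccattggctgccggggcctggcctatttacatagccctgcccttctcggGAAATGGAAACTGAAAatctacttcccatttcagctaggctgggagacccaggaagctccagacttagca
Isg15 has 3 overlapping matches in a single stretch, of which the first begins 78 bases before the start. Ifit3 has 2 separate matches, the first 156 bases before the start, whereas the 2 matches of Bst2 and the 2 of Oas1a overlap each other and begin 130 and 20 bases before it.

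The motif was found in 1131 of 32851 promoters (3.44%), or for 1079 of 27025 gene symbols (3.99%). Of the 84 interferon list genes that were higher, 63 had a promoter in the table and 35 of these (55.6%) held it, as did 15 of 61 (24.6%) interferon list genes that did not pass. It was also present in 16 of 78 (20.5%) promoters of the other genes that were higher, and in 0 of 49 of the genes that were lower, which allows a share of up to 6.12%. The window of Irf7 held no match, which says only that these letters are not in it.

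The interferon-inducible GTPases, which act on vacuoles that hold pathogens, were higher in 13 of 18 genes, with a median of 1.70 and no gene without overlap. Tgtp1 was at 0.471, 11.3 and 34.5 RPKM against 0.406, 0.818 and 2.74 RPKM (2.56 ± 0.44, adjusted p = 0.00132), with 10 of 12 Isg15-high tumors above every Isg15-low tumor; Tgtp1 and Tgtp2 (2.32 ± 0.38) are close copies and can share reads. Iigp1 was at 0.766, 19.8 and 76.3 RPKM against 1.55, 2.62 and 7.92 RPKM (2.42 ± 0.49, adjusted p = 0.00685). Igtp was at 6.18, 29.1 and 121.6 RPKM against 4.32, 5.84 and 10.1 RPKM (2.16 ± 0.32, adjusted p = 0.000243). The lowest Isg15-high tumor fell inside the Isg15-low range for Tgtp1 and Igtp and below it for Iigp1. With treatment in the fit 1 of the 18 genes passed, and without vehicle tumors 13 did.

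Of 19 genes of MHC class I presentation, 9 were higher, all 19 had a positive difference, and the median was 0.80. They were led by Tap1, which carries peptides into the endoplasmic reticulum (12.9, 40.3 and 77.2 RPKM against 7.80, 11.9 and 26.6 RPKM; 1.36 ± 0.26, adjusted p = 0.00361), the nonclassical MHC gene H2-T23 (1.28 ± 0.23, adjusted p = 0.0027) and the immunoproteasome subunit Psmb9 (1.17 ± 0.26, adjusted p = 0.0191). The groups overlapped in each. None of these genes passed with treatment in the fit, and 6 did without vehicle tumors. For MHC class II, 0 of 8 passed, a count near the background when 1.52% of all tested genes were called. H2-Aa, a class II chain, ranged widely in both groups (94.2, 938 and 3838 RPKM against 72.9, 337 and 1558 RPKM; 0.77 ± 0.59, adjusted p = 0.488).

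Of 9 chemokines of the interferon response, 3 were higher, with a median of 0.98. Cxcl10, which attracts T cells, was at 3.44, 52.3 and 275.2 RPKM against 3.77, 9.21 and 21.3 RPKM (2.64 ± 0.52, 6.25-fold, adjusted p = 0.00586), with 9 of 12 Isg15-high tumors above every Isg15-low tumor. Cxcl11 (1.88 ± 0.45, adjusted p = 0.030) and Ccl5 (1.81 ± 0.45, adjusted p = 0.0382) also passed. With treatment in the fit 0 of the 9 passed (Cxcl10 adjusted p = 0.319), and without vehicle tumors 4 did. When single tumors were left out, Cxcl11 passed in 18 of 24 fits (adjusted p up to 0.0566, without X10_116) and Ccl5 in 12 of 24 (up to 0.0775, without Untreated_186). Cxcl9 was at 0.248, 7.17 and 67.4 RPKM against 0.330, 0.537 and 4.45 RPKM and missed the threshold (2.11 ± 0.56, adjusted p = 0.0504). It passed in 10 of 18 alternative fits and in 5 of the 24 fits without single tumors. Its highest Isg15-high value exceeded the median of that group widely. Of the feedback inhibitors, Socs1 was higher next to Usp18 (0.73 ± 0.17, adjusted p = 0.0277), while Socs3 (-0.29 ± 0.28, adjusted p = 0.582) and Cish (0.41 ± 0.35, adjusted p = 0.537) did not pass. Socs1 did not pass with treatment in the fit (adjusted p = 0.704), without the vehicle tumors, or without any one of X10_100, X10_116, insulin_21 and Untreated_186 (adjusted p up to 0.0558).

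The Isg15-high tumors were not alike. The median difference from the Isg15-low mean over the 163 interferon list genes was highest in Untreated_186, at 1.79, where 129 genes lay above every Isg15-low tumor. Untreated_186 held the highest level of Irf7 (550.9 RPKM) and Cxcl9 (67.4 RPKM) of all 24 tumors. The tumor insulin_8 had the highest Ptprc (51.3 RPKM) and Cd3e (24.5 RPKM) of the 24, with 121 interferon list genes above every Isg15-low tumor. At the border, Untreated_174 had a median difference of -0.06, and 41 genes lay above every Isg15-low tumor. It combined high Oasl1 (100.5 RPKM) and Bst2 (278.2 RPKM) with Ifit3 at 1.04 and Cxcl10 at 3.44 RPKM, both inside or below the Isg15-low range. Its Epcam level, an epithelial marker, was 302 RPKM, the highest of the 24 tumors. Without this tumor 208 genes were higher and 43 lower, and 95 interferon list genes were higher in place of 84.

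**Figure D4:**
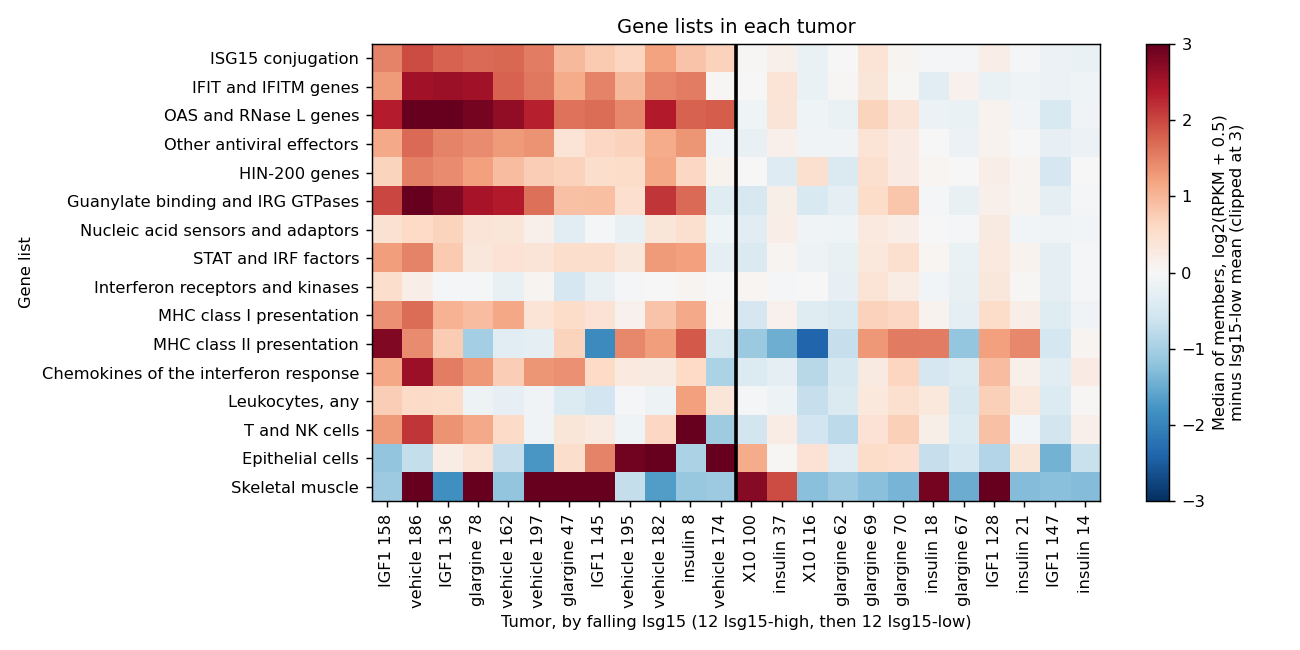
Median over the members of each list (rows) in each tumor (columns, by falling Isg15), as log2(RPKM + 0.5) minus the mean of the Isg15-low tumors, clipped at 3 in either direction. The other antiviral effectors lie between 0.41 and 1.71 in 11 of the Isg15-high tumors and at -0.11 in Untreated_174, in which the OAS and RNase L genes are at 1.81 and the GTPases at -0.37; the muscle and epithelial rows vary between tumors of both groups.

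Markers of other cell types were examined beside these results. As 1.52% of all tested genes were called, a count of 0 in any of the short cell type lists below is near the background. Ptprc, the pan-leukocyte gene CD45, was at 9.23, 19.6 and 51.3 RPKM in the Isg15-high and at 15.2, 21.5 and 31.6 RPKM in the Isg15-low tumors (-0.08 ± 0.22, adjusted p = 0.864), and of the 12 tumors with the highest Ptprc, 3 were Isg15-high and 3 Isg15-low. Of 16 T and NK cell markers 0 passed and 14 had a positive difference; their summed level was 15.8 to 463.9 RPKM in the Isg15-high and 19.0 to 97.5 RPKM in the Isg15-low tumors, led by Trbc2 (1.30 ± 0.42, adjusted p = 0.103), with Cd3d at 1.07 ± 0.33 (adjusted p = 0.0876). All 6 B and plasma cell markers had a positive difference and 0 passed, with sums of 1.75 to 324.6 against 0.506 to 10.5 RPKM. The lymphocyte lists were thus on the higher side without passing, with a median of 0.79 for T and NK cells and 0.96 for B and plasma cells, and their part in the interferon genes was not tested. With Ptprc as a term in the fit, all 84 interferon list genes remained higher. Ptprc itself hardly differed between the groups, so this fit cannot show what part leukocytes of any kind had.

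Of 12 macrophage and monocyte markers 1 passed, Ly6c2, a surface protein of inflammatory monocytes (6.72, 14.3 and 103.5 RPKM against 2.40, 4.32 and 7.30 RPKM; 2.00 ± 0.33, adjusted p = 0.000893), with 11 of 12 Isg15-high tumors above every Isg15-low tumor. Ly6c2 did not pass with treatment in the fit (adjusted p = 0.0967). Mrc1, of resident macrophages, differed by -0.66 ± 0.35 (adjusted p = 0.302), Cd68 by -0.27 ± 0.26 (adjusted p = 0.593), and the median of the list was -0.04. No dendritic cell, neutrophil, fibroblast, endothelial or adipocyte marker passed, which is again near the background for lists of this size. Pdgfra, a fibroblast receptor, was at 8.48, 26.4 and 66.4 RPKM against 28.7, 57.1 and 98.0 RPKM (-1.04 ± 0.30, adjusted p = 0.0734). Of the 10 fibroblast and mesenchymal markers, 5 had a positive difference, and the list median was -0.01.

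Muscle and epithelial markers varied widely between tumors. The 8 skeletal muscle markers summed to 3.60 to 3891 RPKM in the Isg15-high and 6.84 to 273.3 RPKM in the Isg15-low tumors, all 8 had a positive difference (median 1.92), and 0 passed; Acta1 differed by 1.78 ± 1.23 (adjusted p = 0.440). The 10 epithelial markers summed to 13.1 to 6010 against 71.6 to 592.5 RPKM, with Untreated_174, Untreated_182 and Untreated_195 at Epcam levels of 302, 243.5 and 151.8 RPKM; 9 of the 10 had a positive difference (median 0.66), and 0 passed. The group median of Epcam was 5.96 against 4.63 RPKM. No marker of these cell type lists was at 0 in all 24 tumors. The part of muscle or epithelium in the interferon genes was not tested.

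Signalling genes outside the interferon lists were also examined; with 1.52% of all genes called, a count of 0 in lists of this size is near the background. Of 12 NF-kB target genes 0 passed (median 0.04; Nfkbia 0.07 ± 0.18, adjusted p = 0.865), and of 10 proliferation genes 0 passed (median 0.03; Mki67 -0.36 ± 0.17, adjusted p = 0.256). Of 12 genes of the insulin and IGF axis 0 passed, 5 had a positive difference, and the median was -0.01. Igf1r, the receptor that X10 and IGF1 activate, was at 3.25, 5.19 and 7.54 RPKM in the Isg15-high and at 3.74, 7.6 and 13.2 RPKM in the Isg15-low tumors (-0.50 ± 0.16, adjusted p = 0.104). The groups overlapped, although the Isg15-low median lay above the highest Isg15-high value. Insr, the insulin receptor, differed by -0.43 ± 0.13 (adjusted p = 0.0788) and passed in 4 of 18 alternative fits.

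Of the 191 higher genes, 84 were on interferon lists. The largest differences outside all lists were those of Ms4a4c, a membrane protein of myeloid cells (0.422, 18.9 and 91.0 RPKM against 1.46, 3.68 and 9.78 RPKM; 2.34 ± 0.51, adjusted p = 0.0146), Plac8 (13.8, 41.3 and 151.7 RPKM against 3.14, 8.77 and 20.3 RPKM; 2.25 ± 0.32, adjusted p = 0.000141) and Phf11b (2.17 ± 0.34, adjusted p = 0.0004). They were followed by Apol9a, H2-T24, BC147527, Ly6a, Gm4951, Apol9b and Phf11a, at 2.05 to 1.68. Ms4a4c (adjusted p = 0.275), BC147527, Ly6a, Gm4951, Apol9b and Phf11a did not pass with treatment in the fit. Their differences in that fit were 2.59, 2.00, 1.54, 1.75, 1.84 and 1.72, in this order. Without vehicle tumors Ly6a did not pass (adjusted p = 0.0948). In Ms4a4c, Plac8, Phf11b, Apol9a, H2-T24 and Phf11a 11 of 12 Isg15-high tumors lay above every Isg15-low tumor. The pairs Apol9a and Apol9b and Phf11a and Phf11b are close copies whose reads can be shared.

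Besides the interferon lists, 2 genes had groups without overlap. AW011738, on the plus strand of chromosome 4 with 2485 bases between its start and that of Isg15, was at 1.49, 1.96 and 3.68 RPKM against 0.644, 0.958 and 1.37 RPKM (0.84 ± 0.12, adjusted p = 0.000243). Daxx, a nuclear chaperone for a histone variant, was at 37.7, 47.3 and 78.1 RPKM against 22.4, 28.3 and 36.2 RPKM (0.77 ± 0.11, adjusted p = 0.000199). It did not pass with treatment in the fit, where the difference was 0.73 (adjusted p = 0.0572).

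The 63 lower genes differed by less. The largest differences were in Hipk2, a nuclear kinase (1.37, 4.77 and 8.13 RPKM against 2.84, 8.40 and 30.3 RPKM; -1.13 ± 0.29, adjusted p = 0.0438), Dmxl1 (-1.06 ± 0.26, adjusted p = 0.0338) and Lnpep (-0.94 ± 0.24, adjusted p = 0.0461). When single tumors were left out, Hipk2 passed in 7 of 24 fits (adjusted p up to 0.0795, without glargine_47) and Dmxl1 in 14 of 24 (up to 0.0699, without insulin_21). Rnf24 was at 2.02, 3.38 and 6.26 RPKM against 5.70, 6.79 and 12.45 RPKM (-0.93 ± 0.19, adjusted p = 0.0079), with 9 of 12 Isg15-high tumors below every Isg15-low tumor. The median gene length that the RPKM values imply was 3626 bases for the lower genes, 1489 for the higher genes and 1619 for all tested genes. Genes without a recovered length of up to 6000 bases were counted as the longest. They made up 20.6% of the lower genes and 5.62% of all tested genes. The split of 191 higher and 63 lower was sensitive to scaling: 75.2% of the calls were higher here, against 41.2% with quantile normalization and 45.1% with upper quartile scaling, under which lower calls grew to 1.71% and 1.35% of the genes tested, higher calls were 1.20% and 1.11%, and the median difference of all genes moved from 0.03 to -0.01. With treatment in the fit 0 genes were lower and without the vehicle tumors 1 was, and leaving out single tumors moved the share of lower genes between 0.161% and 1.09%.

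The 25 tumors between the groups played no part in the group difference and were used to follow the same genes. Their Isg15 ran from 13.2 to 53.4 RPKM, and the slope of each gene on log2(Isg15 RPKM + 0.5) was fitted. With Isg15, 22 genes (0.131%) rose and 3 (0.0179%) fell, and 21 of the 22 were also higher in the Isg15-high group. Of the 191 genes that were higher, 94.2% had a positive slope, against 49.5% of all tested genes. The 63 lower genes all had a negative slope, as did 50.5% of all tested genes, and 0 of them passed. The median slope over the 163 interferon list genes was 0.38, with 144 positive. No cell type marker passed in these 25 tumors, but several cell type lists had steeper medians. The median was 0.74 for T and NK cells (13 of 16 positive) and 1.00 for B and plasma cells (6 of 6). It was 0.79 for skeletal muscle (8 of 8) and 1.09 for adipocytes (6 of 6). The other cell type lists had medians from -0.48 (neutrophils) to 0.33 (dendritic cells).

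Of the 22 genes that rose, 17 were on interferon lists. The steepest were Irf7 (1.24 ± 0.13, adjusted p = 4.03e-06), Ifit3 (1.08 ± 0.13, adjusted p = 1.94e-05) and Usp18 (1.06 ± 0.11, adjusted p = 4.03e-06). Bst2 (0.89 ± 0.11, adjusted p = 7.10e-05), Oasl1, Oas3, Oasl2, Oas1a, Oas1b, Oas1g, Ifit1, Ifit3b, Ifi44, Rtp4, Mx2, Slfn1 and Dhx58 completed them. Ifi206, Ifi208, H2-T24, Phf11a and Fcho1 rose outside the lists, and of these Fcho1 did not differ between the groups (0.61 ± 0.34, adjusted p = 0.329). Has2os, St3gal1 and Snai1, a factor that drives loss of epithelial character, fell with slopes of -0.49, -0.61 and -0.75, whereas their group differences of 0.24, -0.61 and -0.43 did not pass. In the 25 tumors 0 genes fell once treatment was in the fit. No member of the GTPase, HIN-200, MHC class I or chemokine lists passed in the 25 tumors, although all 18 GTPase and all 19 MHC class I list members had positive slopes. Ifi206 and Ifi208, relatives of the HIN-200 genes, and H2-T24, an MHC class I gene, were not on those lists.

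**Figure D5:**
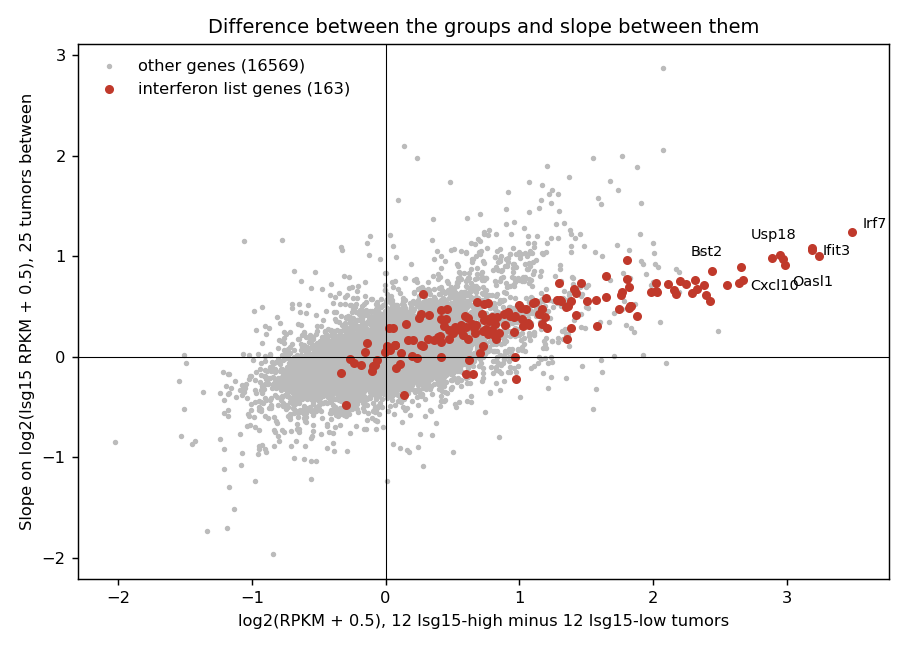
Each point is a gene, with the log2 difference between the 12 Isg15-high and 12 Isg15-low tumors on the x axis and the slope on log2(Isg15 RPKM + 0.5) in the 25 tumors between them on the y axis; interferon list genes are red. Irf7 lies furthest out of the red points at 3.49 and 1.24, and 144 of the 163 red points have a positive slope.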

How the data were processed

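Poly-A RNA of 50 tumors was read on the Ion Proton. Per the labels and the study's methods, the authors aligned reads to GRCm38 with TopHat2 2.0.10 and Bowtie2, counted them per gene with HTSeq 0.6.1 and deposited RPKM values for 37701 genes; DESeq2 1.2.10, named there too, was not used here. RPKM values are not counts, and the gene length the authors divided by sets the level of a gene but not its difference between tumors. The values of each gene share a common step, which gave library sizes, lengths and reads (15793 of 16733 genes, 94.4%; at least 94.2% of low values in a tumor came out whole, within the rounding of the deposited decimals).

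The members, the lists and the rule for named genes were chosen with earlier results of these data known. Tumors were ranked by Isg15 RPKM without insulin_13. Genes averaging 0.5 RPKM or more were tested on log2(RPKM + 0.5) with limma 3.58.1 in R 4.3.3 (intensity trend, Benjamini-Hochberg adjusted p under 0.05, two-sided); Isg15 was not tested. Permutation tests used 100000 shuffles, with Python 3.11.15. Each mouse number occurs once, and tumors were not paired. Genes named are Isg15, up to 4 members of each interferon list with the largest difference and any measured receptor, up to 2 members and the first of each other list, the largest differences outside the lists (10 each way at most) and the 6 genes without overlap with the largest difference; AW011738, Daxx, Jak2 and Tyk2, genes singled out in the 25 tumors between the groups and genes given for single tumors were chosen after their values were seen. Gene coordinates and types came from GENCODE M21 (GRCm38), which held 16550 of the tested genes, and promoters from RefSeq. Alternatives were other pseudocounts, filters, normalizations, covariates, group sizes, a ranking by Ifit3, voom on recovered reads and leaving out each tumor; those without vehicle tumors and without pseudogenes, and the fit of the 25 tumors with no intensity trend, were chosen after seeing the data. Not every gene that the rule names is reported here.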

Additional observations from a re-analysis of the deposited data

Results flagged for a closer look

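Library size was the measure in which single tumors stood apart from their treatment, among 10 sets of 9 or 10 tumors checked (Isg15 and library size in each of the 5 treatments); chance flags about 1 in 20 such sets. The tumor insulin_8, an Isg15-high tumor, had 51.9 M reads (51.8868), further from the next insulin tumor than the range of the group allows, and IGF1_143, a tumor between the groups, had 51.9 M reads (51.8796) among the IGF1 tumors. No tumor stood apart in this way for Isg15.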

How the results depend on the processing

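All 61 single genes checked kept their direction in all 2548 values (1 per gene and alternative; 0 reversed), of which 125 lost and 41 gained a call. As percent of the genes tested, in all, higher and lower (1.52%, 1.14% and 0.377% here), calls were 5.62%, 2.80% and 2.82% with 16 tumors per group, 0.825%, 0.705% and 0.120% with 8, 3.14%, 2.09% and 1.05% with Ptprc as a covariate, 5.02%, 2.95% and 2.07% for the slope over all 49 tumors, 0.478%, 0.394% and 0.0844% with all genes of a nonzero value (more genes tested), 0.191%, 0.191% and 0 with treatment as a covariate, and 0.705%, 0.699% and 0.00598% without vehicle tumors. Calls in all and lower were 2.48% and 0.890% at a mean RPKM of at least 5, 2.90% and 1.71% with quantile normalization and 2.46% and 1.35% with upper quartile scaling. Lower calls alone moved to 0.197% with insulin_13 kept, 0.149% with library size as a covariate, 0.634% without pseudogenes and 0.239% with a ranking by Ifit3. Interferon list genes that were higher, 84 here, numbered 27 with treatment as a covariate. In the 25 tumors between the groups, 22 rising genes became 13 at a mean RPKM of at least 5, and 3 falling genes became 7 with Ptprc and 0 with treatment as a covariate. The treatments over the groups gave exact p = 0.0909 with 8 tumors per group, 0.256 with 16 and 0.189 with a ranking by Ifit3. By number, the 254 calls in all were 270 at a mean RPKM of at least 5 and 170 with all genes of a nonzero value. The causes of these shifts were not tested.

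Leaving out each of the 24 tumors in turn gave 0.974% to 2.55% in all, 0.801% to 1.46% higher, 0.161% to 1.09% lower and 74 to 95 interferon list genes higher. The total moved over 1.5 times without IGF1_136 (2.38%), glargine_78 (2.55%), Untreated_182 (2.47%), Untreated_186 (0.974%) and insulin_21 (1.01%), and the lower genes in 16 of the 24 fits, with the lowest share without glargine_47 and the highest without glargine_78. No paired analysis was possible because every mouse number occurs once. The interferon ligands lay under the filter on low values and were not tested.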

Other observations

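The tumor insulin_13, set aside before ranking, had Isg15 at 9.50 RPKM, inside the Isg15-low range of 8.74 to 12.3 RPKM. Its Irf7 level of 12.0 RPKM, Usp18 level of 1.77 RPKM and Ifit3 level of 0.946 RPKM lay inside the ranges of the Isg15-low tumors as well. Its Acta1 level, a gene of skeletal muscle, was 282 RPKM, above the highest Isg15-low tumor at 73.9 RPKM, and its Ptprc level of 9.27 RPKM was below the lowest at 15.2 RPKM.

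Among the 25 tumors between the groups, insulin_9 (rank 20) had 154 of 163 interferon list genes above the median of the 49 ranked tumors, as many as Untreated_186 in the Isg15-high group. In the Isg15-low group glargine_69 had 97 and glargine_70 had 91, against 13 in IGF1_147. A ranking by Ifit3 shared 10 of the 12 Isg15-high and 9 of the 12 Isg15-low tumors.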
